A study of Mus musculus with 15 samples.

Results

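Lipid droplets are the cell's stores of neutral fat, and this account follows 10 genes whose products coat, build or empty them: Fitm1, Fitm2, Plin2, Plin4, Plin5, Cidea, Cidec, Pnpla2, G0s2 and Mgll. The genes were chosen as droplet proteins and lipases, with earlier results of these data known. All 10 were measured among the 19938 genes that the arrays of this mouse liver study could name. Each gene had 1 probe set of its own, shared with no other gene.

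RNA was taken from the livers of male mice aged 7.5 months that had been gavaged daily for 4 days, and each animal gave 1 array. The wild-type mice (129S1/SvlmJ) received either corn oil alone (n = 4) or corn oil with 1150 mg/kg/day of the phthalate ester DEHP (n = 4). The PPARα-null mice (129S4/SvJae-Pparatm1Gonz/J), whose targeted Ppara allele is carried in every cell and not in hepatocytes alone, received the same vehicle (n = 4) or the same dose (n = 3). DEHP, di(2-ethylhexyl) phthalate, is a plasticizer that acts as a peroxisome proliferator, and by its title the series asks how far it works through the nuclear receptors PPARα and CAR. Because the labels give the 2 genotypes as different 129 substrains by origin, kept inbred on 129/Sv, an effect of genotype and one of substrain cannot be told apart. Animals are named by genotype and the number in their label (WT-58, KO-121).

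A lipid droplet forms when triglyceride made in the endoplasmic reticulum buds into the cytosol, a step to which the fat storage-inducing transmembrane proteins (FIT proteins) contribute. The droplet is then covered by perilipins, enlarged by CIDE proteins that pass lipid from one droplet to another, and emptied by lipases that act in sequence, adipose triglyceride lipase first and monoglyceride lipase last. In liver the fatty acids released in this way are burned, re-esterified for secretion or passed on as ligands of PPARα, the nuclear receptor that turns on fatty acid oxidation during fasting. PPARα binds DNA together with RXR at a DR1 element, a direct repeat of the hexamer AGGTCA with 1 base between.

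The promoters of 3 of the genes are shown because Fitm1 and Plin5 differed most between the genotypes, and because Plin2, which did not pass the test in any comparison, held the closest match to the DR1 element. Each is the 250 bases before a transcription start, on the strand of the gene, from RefSeq on GRCm38.p6, and the capitals mark the closest match to the DR1 element on either strand. Fitm1 lies at chr14:55575424-55575673 on the plus strand. For Plin5, the outer of its listed starts is shown, at chr17:56117549-56117798 on the minus strand, and Plin2 is at chr4:86670060-86670309 on the minus strand.
Fitm1: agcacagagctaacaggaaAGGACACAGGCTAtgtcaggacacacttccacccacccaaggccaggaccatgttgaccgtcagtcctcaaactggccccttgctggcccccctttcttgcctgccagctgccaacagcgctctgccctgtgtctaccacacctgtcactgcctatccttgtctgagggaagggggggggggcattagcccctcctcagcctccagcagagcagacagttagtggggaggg
Plin5: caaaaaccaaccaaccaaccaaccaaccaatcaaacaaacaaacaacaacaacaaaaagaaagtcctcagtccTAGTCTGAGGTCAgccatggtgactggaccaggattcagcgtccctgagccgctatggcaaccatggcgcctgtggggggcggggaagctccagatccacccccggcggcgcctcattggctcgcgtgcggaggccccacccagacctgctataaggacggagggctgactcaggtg
Plin2: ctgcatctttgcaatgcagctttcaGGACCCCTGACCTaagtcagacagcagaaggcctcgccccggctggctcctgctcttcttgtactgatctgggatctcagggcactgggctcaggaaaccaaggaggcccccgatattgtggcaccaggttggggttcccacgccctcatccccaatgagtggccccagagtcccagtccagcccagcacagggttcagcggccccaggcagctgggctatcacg

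The search covered 300 bases, 250 before and 50 after each start, on both strands. None of the 9 genes with an entry in the promoter table (12 promoters) held the exact repeat, which 0.0396% of all 32851 promoters held, and none held it with at most 1 mismatch in its 12 fixed letters (0.554% of all promoters). Plin2 was the 1 gene with a match at 2 mismatches, on the opposite strand and starting 225 bases before the start of transcription, where 3.86% of all promoters held a match. With up to 3 mismatches allowed, 6 of the 12 promoters held a match, from 5 genes (Fitm1, Plin5, Plin2, Cidec and G0s2), against 24.6% of all promoters. The single hexamer AGGTCA lay in promoters of Plin2 and Plin5, and in 16.3% of all promoters. In both printed promoters it lies within the capitals, so these are not separate matches. These letters are a description of short windows, not of binding.

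**Figure D1:**
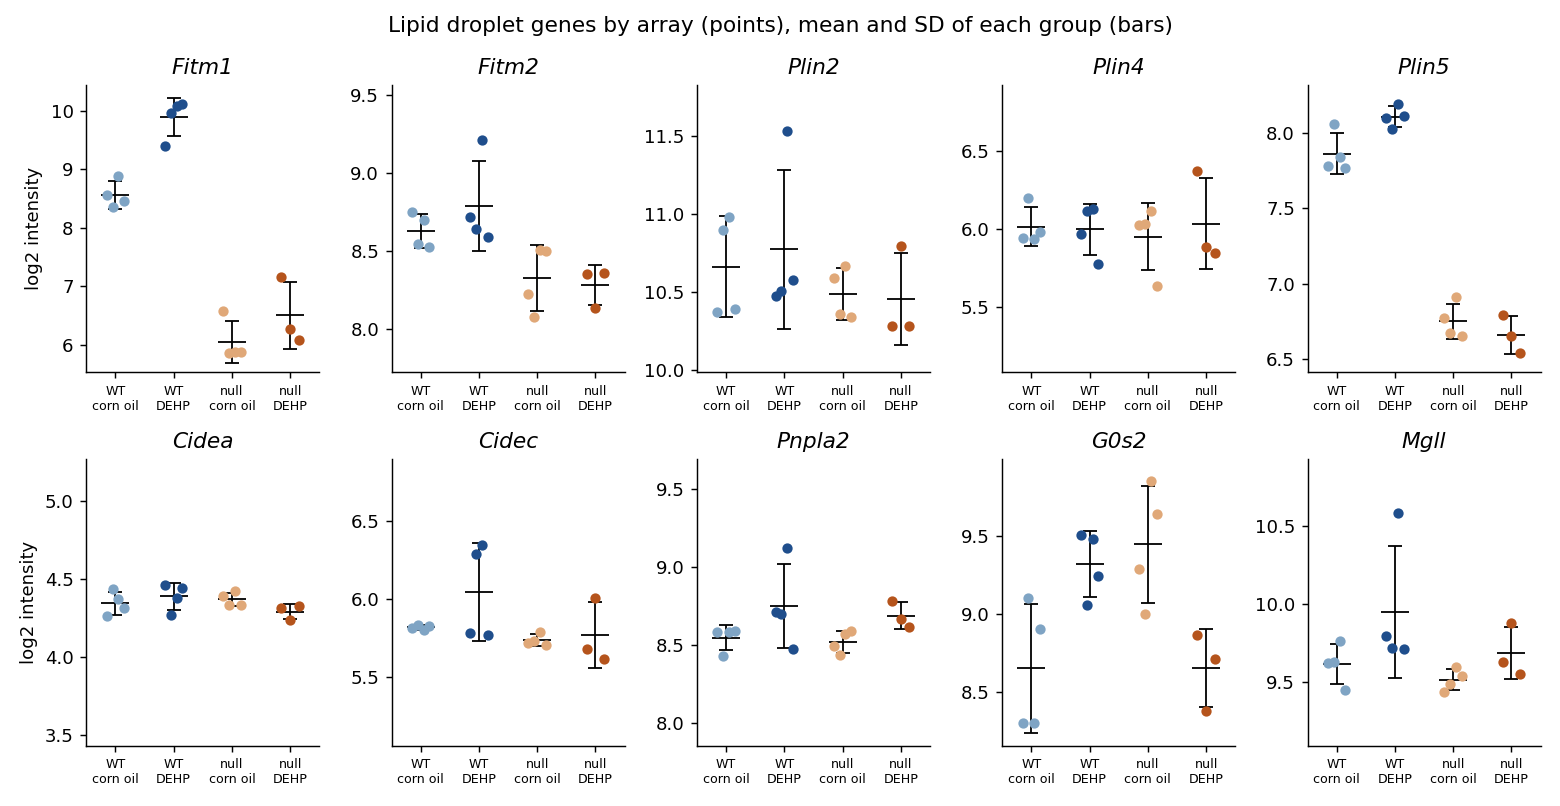
Log2 intensity of the 10 genes on each of the 15 arrays (vertical axis), by group (wild-type corn oil, wild-type DEHP, null corn oil, null DEHP), with 1 point per animal and bars at the group mean and 1 SD to either side. Each panel has its own scale. Fitm1 ran from 5.85 to 10.12 and Plin5 from 6.54 to 8.19, with both null groups below both wild-type groups. Plin4 ran from 5.63 to 6.37 and Cidea from 4.24 to 4.47.

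Over the whole set, DEHP raised 1 gene in wild-type livers (Fitm1), where 2.29% of all genes were called as higher and 3.86% in either direction. In null livers limma called none of the 10 and 0.471% of all genes, and 1 of the 10 (G0s2) had an unadjusted p below 0.05. The genotype separated more of them. On corn oil 2 genes (Fitm1 and Plin5) were lower in null than in wild-type mice, where 0.547% of all genes were called as lower and 1.19% in either direction. Under DEHP 3 (Fitm1, Plin5 and Fitm2) were lower in null mice, where 5.61% of all genes were called as lower and 10.7% in either direction. The response of 1 gene, G0s2, was lower in null than in wild-type mice by the test of the difference, which called 0.562% of all genes as lower and 0.898% in either direction. Because the 10 genes were chosen with earlier results of these data known, these shares are a background to the counts and not a test of the set.

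Levels are given as log2 intensity and differences as log2 values ± standard error, all from limma's moderated test fitted across the 19938 genes with Benjamini-Hochberg adjustment. A gene is said to have risen or fallen, or to have been higher or lower in a group, only where its adjusted p was below 0.05. Ranges that did not overlap were counted as well. With DEHP in wild-type mice this held for 1 of the 10 genes (Fitm1, higher), against 6.1% of all genes as higher, and in null mice for 3 (Pnpla2 higher, G0s2 and Cidea lower), against 9.99% in either direction. Between genotypes it held for 4 on corn oil (Fitm1, Fitm2, Plin5 and Cidec, lower in null), against 3.67%, and for 4 under DEHP (Fitm1, Fitm2, Plin5 and G0s2, lower in null), against 9.51%.

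The median difference of the 10 genes was 0.22 for DEHP in wild-type mice against -0.01 over all genes, and 9 of 10 were above 0. These values include treated animal WT-58, the highest of its group in 7 of the 10 genes. Without it the difference of Plin2 was -0.14, and no median of the set is given. For DEHP in null mice it was -0.0016 against 0.01, with 5 of 10 above 0. For null against wild type the medians were -0.09 against -0.008 on corn oil, with 8 of 10 below 0, and -0.30 against 0.02 under DEHP, with 9 of 10 below 0. WT-58 enters the comparison under DEHP too. Without it the differences there went from -0.32 to -0.07 for Plin2, from -0.26 to -0.05 for Mgll and from -0.06 to 0.06 for Pnpla2. That of Fitm2 was then -0.36, and Fitm1 and Plin5 kept their calls.

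Fitm1 encodes FIT1, a membrane protein of the endoplasmic reticulum that binds triglyceride and is known mostly from skeletal muscle and heart. The gene lies at chr14:55575674-55576952. In wild-type mice on corn oil it read 8.35, 8.45, 8.55 and 8.89, and under DEHP 9.40, 9.96, 10.08 and 10.12. Every treated wild-type animal was above every control. DEHP thus raised Fitm1 2.51-fold in wild-type livers (1.33 ± 0.22, 95% interval 0.85 to 1.81, adjusted p = 0.00325), the 35th largest rise among all genes. The call held with any 1 animal left out, with adjusted p from 0.000715 to 0.0136.

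In null mice on corn oil Fitm1 read 5.85, 5.88, 5.88 and 6.58, and under DEHP 6.08, 6.26 and 7.15. These groups overlap, and all 7 null animals lie below the lowest wild-type animal. On corn oil Fitm1 was 5.72-fold lower in null than in wild-type mice (-2.52 ± 0.22, adjusted p = 1.12e-05), the 4th largest fall of all genes, and under DEHP it was 10.5-fold lower (-3.39 ± 0.24, adjusted p = 3.25e-07). Most null readings lie near the median level of all genes (5.96), and whether they were above background is not known. These folds are therefore those of the readings and may understate the difference in RNA. The response to DEHP in null mice was 0.45 ± 0.24 (adjusted p = 0.479), and the difference between the responses was -0.88 ± 0.33 (adjusted p = 0.244), so that a smaller response in null mice was not shown by the test of the difference itself.

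The value of 7.15 came from null DEHP animal KO-121, whose array carried muscle transcripts. All 7 measured markers of skeletal and heart muscle were highest there of all 15 arrays, by a median of 2.92 on the log2 scale over the next array, and their summed intensity was 3075 against 298 to 364 on the other 14. Acta1, skeletal muscle actin, read 10.46 there and at most 6.68 elsewhere. Without this animal the response of Fitm1 in null mice was 0.13 (adjusted p = 0.897), the difference between the responses -1.20 (adjusted p = 0.0554) and the gap between null and wild type under DEHP -3.72 (adjusted p = 1.54e-07).

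**Figure D2:**
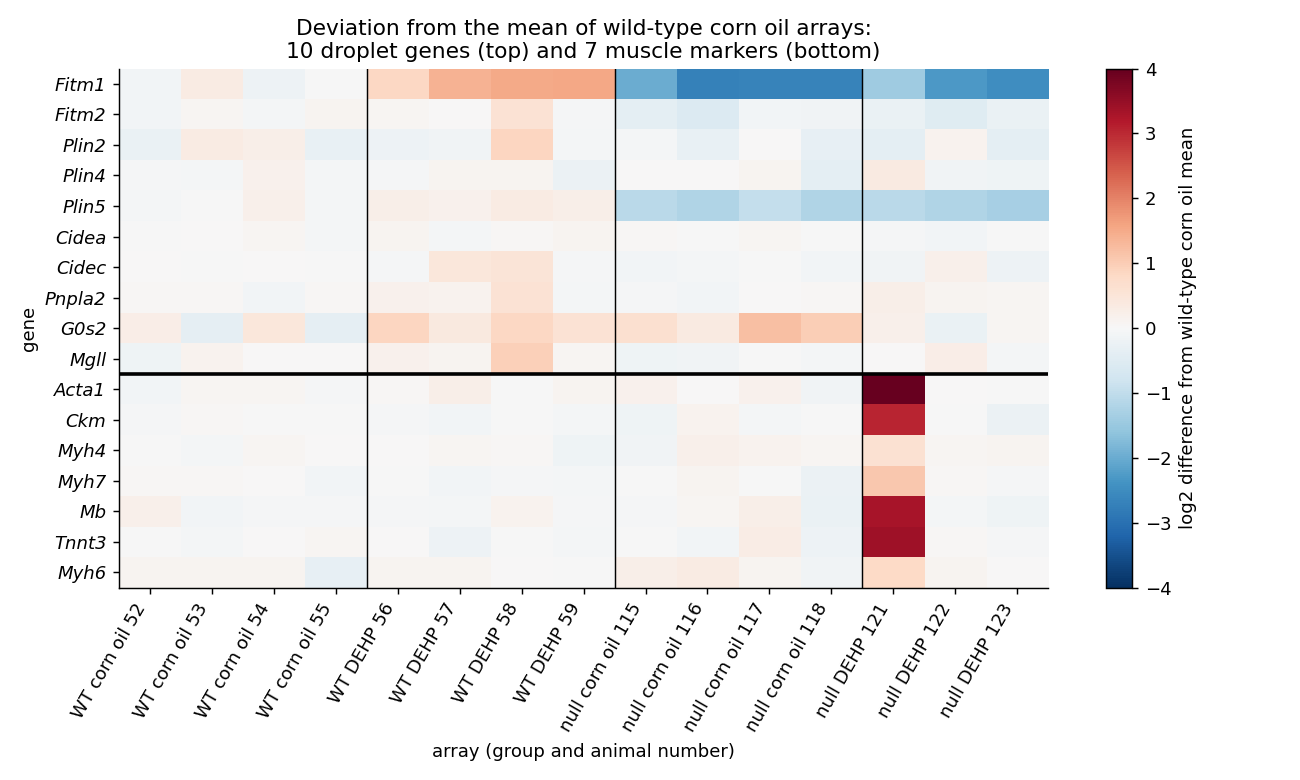
The 10 droplet genes (upper rows) and the 7 muscle markers (lower rows) on each of the 15 arrays (columns, by group), coloured by log2 intensity minus the mean of the 4 wild-type corn oil arrays. Fitm1 is above that mean in all 4 wild-type DEHP arrays and below it in all 7 null arrays, Plin5 is below it in the same 7, and the muscle markers stand out on the array of KO-121.

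Fitm2 encodes FIT2, the widely expressed relative of FIT1 and an enzyme of the endoplasmic reticulum that is needed for normal droplet budding; the gene lies at chr2:163468703-163472629. Wild-type mice read 8.53, 8.54, 8.70 and 8.75 on corn oil and 8.59, 8.64, 8.72 and 9.21 under DEHP. Null mice read 8.07, 8.23, 8.50 and 8.50 on corn oil and 8.14, 8.35 and 8.36 under DEHP. Null animals lay below wild-type animals in both arms, without overlap. The difference passed the test under DEHP, where Fitm2 was 1.42-fold lower in null mice (-0.51 ± 0.14, adjusted p = 0.0274), and was -0.30 ± 0.13 (adjusted p = 0.345) on corn oil. The call under DEHP was lost without wild-type DEHP animal WT-58, which had the value of 9.21 (-0.36, adjusted p = 0.0522), and without null DEHP animal KO-122 (-0.43, adjusted p = 0.141). The DEHP difference of Fitm2 was 0.16 ± 0.13 in wild-type and -0.04 ± 0.14 in null mice (adjusted p = 0.602 and 0.943).

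**Figure D3:**
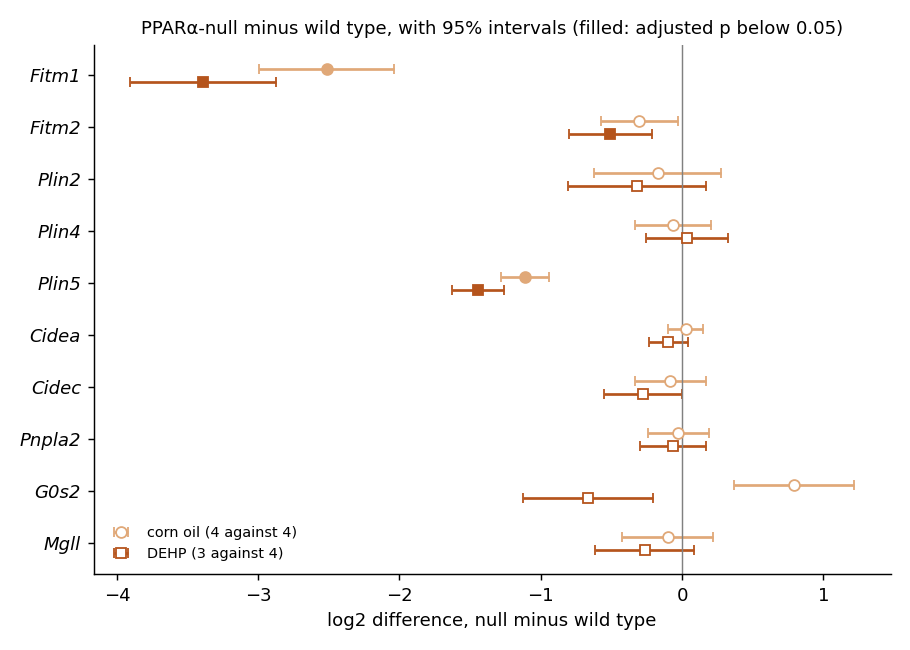
Difference in log2 intensity, null minus wild type (horizontal axis), for each of the 10 genes on corn oil and under DEHP, with 95% intervals and filled points where the adjusted p was below 0.05. Fitm1 lies at -2.52 and -3.39 and Plin5 at -1.11 and -1.44, all 4 filled, and Fitm2 is filled under DEHP alone.

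Among the perilipins, which coat the droplet and decide how lipases reach it, the genotype difference lay in Plin5. Plin5 encodes the perilipin of oxidative tissues, which tethers droplets to mitochondria and binds adipose triglyceride lipase, and the gene lies at chr17:56111597-56117606. It read 7.77, 7.78, 7.84 and 8.06 in wild-type mice on corn oil, 8.03, 8.10, 8.11 and 8.19 under DEHP, 6.65, 6.67, 6.77 and 6.91 in null mice on corn oil and 6.54, 6.65 and 6.79 in null mice under DEHP. The lowest wild-type and the highest null value are thus well apart, while the corn oil and DEHP groups overlap within each genotype. Plin5 was 2.16-fold lower in null mice on corn oil (-1.11 ± 0.08, adjusted p = 1.45e-06) and 2.72-fold lower under DEHP (-1.44 ± 0.09, adjusted p = 4.24e-08), and both calls held with any 1 animal left out. The DEHP difference in wild-type mice was 0.25 ± 0.08, with a 95% interval of 0.07 to 0.42 (adjusted p = 0.116), in null mice it was -0.09 ± 0.09 (adjusted p = 0.76), and the difference between them was -0.33 ± 0.12 (adjusted p = 0.212).

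Plin2, the perilipin of liver droplets whose protein is stabilised by the fat it covers, lies at chr4:86626910-86670217. It read 10.37, 10.39, 10.90 and 10.98 in wild-type mice on corn oil and 10.47, 10.51, 10.58 and 11.53 under DEHP, and 10.34 to 10.67 and 10.28 to 10.79 in the null groups. The 4 groups overlap. The DEHP difference was 0.11 ± 0.21 in wild-type mice, with a 95% interval of -0.34 to 0.56 (adjusted p = 0.858), and the genotype difference was -0.17 on corn oil and -0.32 under DEHP (adjusted p = 0.825 and 0.462). The sign of the DEHP difference rests on animal WT-58, without which it was -0.14 (adjusted p = 0.748).

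Plin4, a perilipin of adipose tissue and muscle that lies next to Plin5 at chr17:56100587-56109948, ran from 5.63 to 6.37 over all 15 arrays, with group means of 6.01, 5.99, 5.95 and 6.03. Its 5 tests gave differences from -0.06 to 0.10, with adjusted p from 0.87 to 0.969. The highest value, 6.37, was again in null DEHP animal KO-121, and without it the DEHP difference in null mice was -0.09 in place of 0.08. The perilipins outside the 10 genes that were measured, Plin1 of adipocytes and the widely expressed Plin3, were singled out here to complete the family, after their values had been seen. They gave DEHP differences in wild-type mice of 0.05 (adjusted p = 0.858) and -0.08 (adjusted p = 0.665).

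The CIDE proteins enlarge droplets in adipose tissue and, in fatty liver, in hepatocytes. Cidea, at chr18:67343564-67367794, ran from 4.24 to 4.47 over all arrays and passed no test (differences from -0.12 to 0.04, adjusted p from 0.419 to 0.922). No detection calls were used here, and whether the probe set read above background is not known. The same holds for Plin4 and Cidec, whose means over all arrays (5.99 and 5.85) lay near the median of all genes (5.96). Cidec, at chr6:113424634-113435760, held close to 1 level in wild-type mice on corn oil (5.80, 5.81, 5.83 and 5.83) and split under DEHP, with 5.77 and 5.78 in animals WT-59 and WT-56 and 6.29 and 6.34 in animals WT-57 and WT-58. In null mice it read 5.70, 5.72, 5.73 and 5.79 on corn oil and 5.61, 5.68 and 6.01 under DEHP. The groups under treatment spread over both sides of their controls, and the DEHP difference was 0.23 ± 0.12 in wild-type mice (adjusted p = 0.368) and 0.03 ± 0.13 in null mice (adjusted p = 0.954). Of the 8 measured white adipocyte markers, 2 were highest of all 15 arrays in WT-57, with Adipoq at 4.70 against 2.68 to 3.24 elsewhere, and the list as a whole lay a median of 0.11 below the highest other array. In WT-58, which had the higher Cidec value, 2 others were highest and Adipoq read 3.07. Their part in the Cidec values was not tested. Without WT-57 the DEHP difference of Cidec in wild-type mice was 0.15 (adjusted p = 0.646), and without WT-58 it was 0.13 (adjusted p = 0.659).

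Lipolysis starts with adipose triglyceride lipase, encoded by Pnpla2 at chr7:141455188-141460743. Pnpla2 read 8.43, 8.59, 8.59 and 8.59 in wild-type mice on corn oil and 8.48, 8.70, 8.71 and 9.12 under DEHP. In null mice it read 8.43, 8.50, 8.57 and 8.59 on corn oil and 8.62, 8.67 and 8.78 under DEHP. All 3 treated null animals were above their 4 controls, by a difference of 0.17 ± 0.11 (adjusted p = 0.594). The wild-type groups overlap, and the difference was 0.20 ± 0.10, with a 95% interval of -0.01 to 0.42 (adjusted p = 0.335). The genotype differences were -0.03 and -0.06 (adjusted p = 0.958 and 0.808).

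G0s2 encodes a small protein that binds adipose triglyceride lipase and blocks it; the gene lies at chr1:193272160-193273188. In wild-type mice it read 8.30, 8.30, 8.90 and 9.10 on corn oil and 9.06, 9.24, 9.48 and 9.51 under DEHP. In null mice the order turned round, with 9.00, 9.29, 9.64 and 9.85 on corn oil and 8.38, 8.72 and 8.87 under DEHP. The null groups do not overlap, and the wild-type groups overlap by 1 control above the lowest treated animal. The DEHP difference was 0.67 ± 0.20 in wild-type mice (adjusted p = 0.0786) and -0.79 ± 0.22 in null mice (adjusted p = 0.106), neither past the threshold.

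The difference between these responses was -1.46 ± 0.29, with a 95% interval of -2.09 to -0.84, and passed the test (adjusted p = 0.0285). It was the 25th largest fall of all genes in that comparison. The difference of null minus wild type was 0.79 ± 0.20 on corn oil (adjusted p = 0.0751) and -0.67 ± 0.22 under DEHP (adjusted p = 0.0611), neither past the threshold. The call of the difference between the responses was close to the threshold: it was lost in 9 of the 15 fits that left out 1 animal each (wild-type controls WT-53 and WT-55, treated wild-type WT-56 and WT-58, null controls KO-115, KO-117 and KO-118, treated null KO-122 and KO-123), with adjusted p up to 0.0936, and the difference stayed between -1.61 and -1.32.

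Monoglyceride lipase, encoded by Mgll at chr6:88724412-88828360, cuts the last fatty acid from the glycerol and also degrades an endocannabinoid. Mgll read 9.45, 9.63, 9.63 and 9.77 in wild-type mice on corn oil and 9.71, 9.72, 9.79 and 10.59 under DEHP, and 9.44 to 9.60 and 9.55 to 9.88 in the null groups. Both treated groups overlap their controls. The DEHP difference in wild-type mice was 0.33 ± 0.15, with a 95% interval of 0.01 to 0.66 (adjusted p = 0.278), and 0.12 (adjusted p = 0.537) without animal WT-58, which had the value of 10.59. In null mice it was 0.17 ± 0.16 (adjusted p = 0.751).

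**Figure D4:**
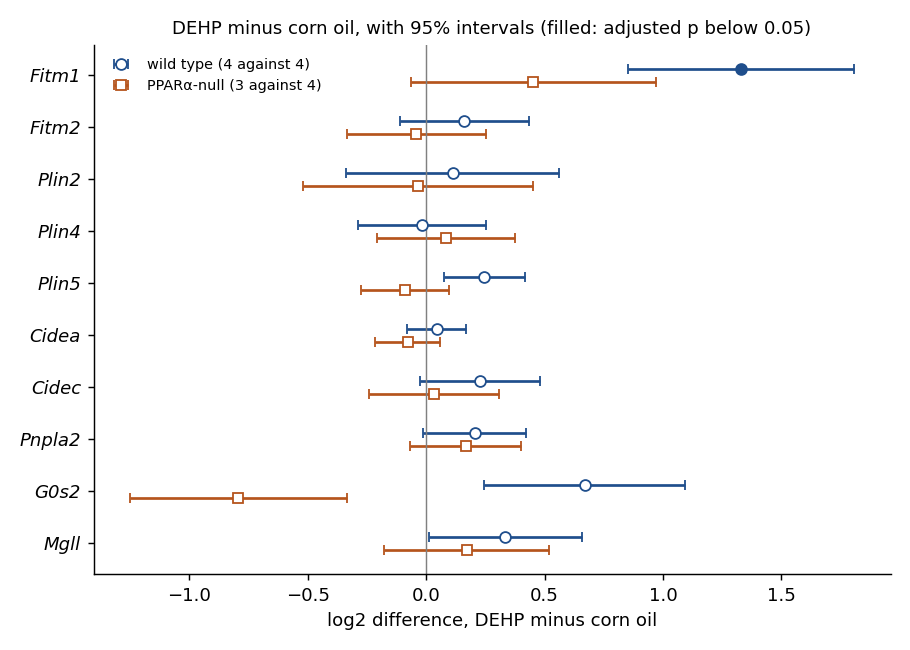
Difference in log2 intensity, DEHP minus corn oil (horizontal axis), for each of the 10 genes in wild-type (4 against 4 animals) and null mice (3 against 4), with 95% intervals and filled points where the adjusted p was below 0.05. Fitm1 in wild-type mice, at 1.33, is the 1 filled point, and the intervals of G0s2 lie on opposite sides of 0.

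Wild-type DEHP animal WT-58 was the highest of its group in 7 of the 10 genes. Its median deviation from the group mean over all 10 was 0.24, against 0.02 over all genes of the arrays. Null control animal KO-117 was the highest of its group in 8 of 10. Leaving out animal WT-58 brought the DEHP differences of Fitm2, Pnpla2 and Mgll in wild-type mice to 0.02, 0.08 and 0.12, and left that of Fitm1 at 1.27 (adjusted p = 0.0129).

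**Figure D5:**
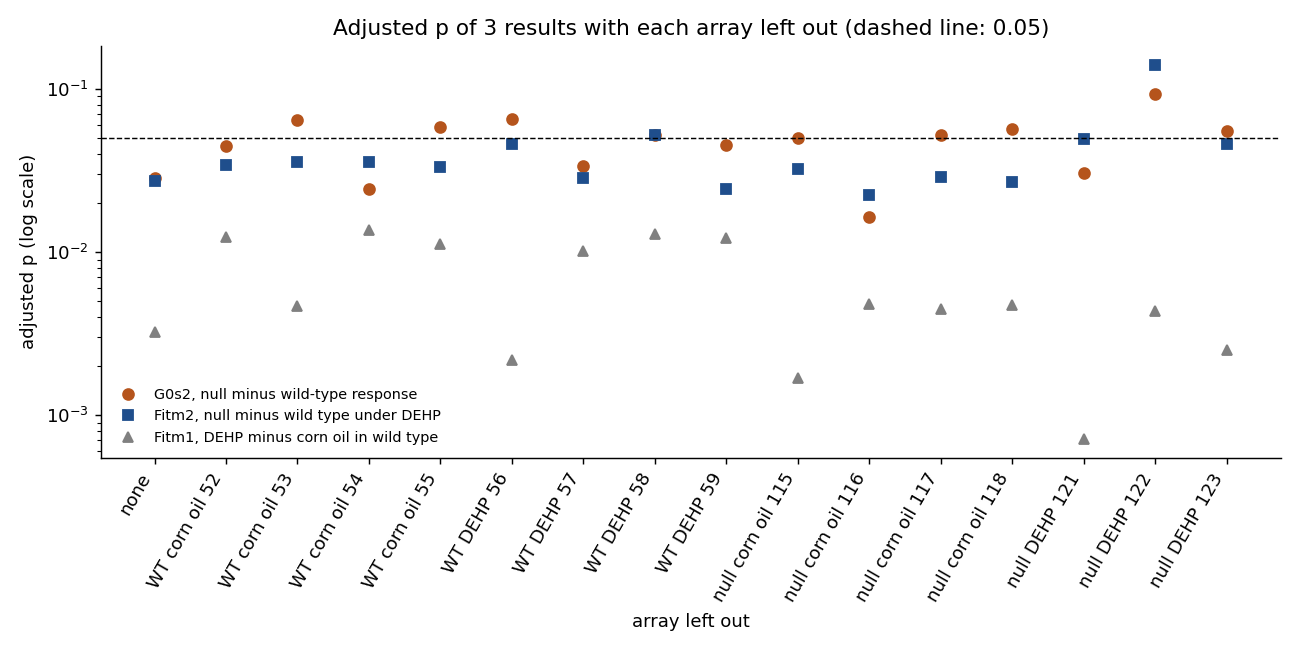
Adjusted p (vertical axis, log scale) of 3 results, with all animals at the left and then with each of the 15 animals left out (horizontal axis), and a dashed line at 0.05. The rise of Fitm1 with DEHP in wild-type mice stayed below the line throughout, Fitm2 under DEHP crossed it without WT-58 and without KO-122, and the G0s2 difference between responses crossed it in 9 of 15 fits.

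Of 52 other genes of the droplet and of lipolysis that were measured, in 4 lists, DEHP raised 9 and lowered 1 in wild-type livers (3.86% of all genes were called there in either direction) and raised 1 in null livers (0.471% of all genes). The lists, too, were chosen with earlier results of these data known, so the shares are a background and not a test. In wild-type mice, 3 of 16 other droplet coat and associated proteins changed, 2 of them upward, and the list median was -0.05. Hsd17b11, a droplet-bound dehydrogenase, rose from 10.44 ± 0.16 to 11.85 ± 0.27 (SD, n = 4 each), a difference of 1.41 ± 0.12 (adjusted p = 6.37e-06). Mettl7b, a droplet-bound methyltransferase, rose by 0.34 (adjusted p = 0.0426) and Aup1, a ubiquitin-pathway protein of droplets, fell by 0.22 (adjusted p = 0.0261). Hsd17b11 was also the 1 gene of the 4 lists that differed between genotypes on corn oil, lower in null mice (-1.04 ± 0.12, adjusted p = 0.00017).

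Among 13 genes of droplet formation and triglyceride synthesis 2 rose with DEHP in wild-type mice, and the list median was 0.004. Mogat1, which acylates monoglyceride, rose from 4.51 ± 0.31 to 7.47 ± 0.39 (SD, n = 4 each), by 2.96 ± 0.17 (adjusted p = 9.17e-08), and Acsl4, an acyl-CoA synthetase, rose by 0.41 (adjusted p = 0.0458). In null mice Mogat1 read 4.29 ± 0.15 (n = 4) on corn oil and 3.94 ± 0.11 (n = 3) under DEHP, a difference of -0.35 ± 0.18 (adjusted p = 0.459). The mean of Mogat1 lay below the lower quartile of all genes (4.62) in every group but the treated wild type, and whether it read above background there is not known, so that the sizes of its differences are those of the readings and may understate the change in RNA. Under DEHP this list held 3 genes lower in null mice, Mogat1 (-3.53, adjusted p = 8.22e-09), seipin (Bscl2, -0.35, adjusted p = 0.00465) and Dgat1 (-0.32, adjusted p = 0.027), and 1 higher, Dgat2 (0.29, adjusted p = 0.0253). Dgat1 and Dgat2 encode the enzymes of the final step of triglyceride synthesis.

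Of 19 other lipases, hydrolases and cofactors 5 rose with DEHP in wild-type mice and none fell, with a list median of 0.08 against -0.01 over all genes. Endothelial lipase (Lipg) rose by 1.23 ± 0.15 (adjusted p = 0.0002), the carboxylesterase Ces1d by 0.84 ± 0.16 (adjusted p = 0.00741), Abhd2 by 0.82 ± 0.12 (adjusted p = 0.00127) and Abhd6, another monoglyceride hydrolase, by 0.61 ± 0.15 (adjusted p = 0.0317). Ces1d belongs to a family of near-identical neighbours, and its probes could not be told apart from theirs here. Lysosomal acid lipase, Lipa, was the 1 gene of these lists that rose in null mice (0.38 ± 0.07, adjusted p = 0.0329), against 0.24 ± 0.06 (adjusted p = 0.0466) in wild-type mice, and the difference between these was 0.13 (adjusted p = 0.611). The call of Lipa in null mice was lost in 7 of the 15 fits that left out 1 animal.

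The difference between the responses passed the test for 3 of the 52 genes, each lower in null mice, where 0.898% of all genes were called (0.562% as lower): Mogat1 (-3.31 ± 0.25, adjusted p = 1.05e-05), Hsd17b11 (-1.29 ± 0.18, adjusted p = 0.00307) and Lipg (-1.08 ± 0.22, adjusted p = 0.0316). Under DEHP 7 of the 52 genes were higher and 9 lower in null than in wild-type mice, in a comparison that called 10.7% of all genes (5.61% as lower). Of the 19 other lipases, hydrolases and cofactors 5 were lower and 1 higher. The lower ones included Lipg (-1.27, adjusted p = 0.000141), Abhd6 (-0.80, adjusted p = 0.00439) and Ces1d (-0.66, adjusted p = 0.0236). Hsd17b11 was lower as well (-2.33, adjusted p = 1.76e-08). The higher ones included 4 of the 5 genes of lipoprotein export: Apobec1 (0.50, adjusted p = 0.0125), the messenger RNA editor of Apob; P4hb (0.37, adjusted p = 0.00177), a subunit of the triglyceride transfer complex; Apob (0.32, adjusted p = 0.00272), the protein of the particle itself; and Mttp (0.31, adjusted p = 0.0337), the transfer protein. The list median was 0.32 against 0.02 over all genes, and no gene of this list was called in any other comparison. Of the genes named from these lists, several calls were close to the threshold. With 1 animal left out, the rise in wild-type mice was lost in 12 of 15 fits for Lipa, 11 for Acsl4, 8 for Mettl7b and 5 for Abhd6, the fall of Aup1 in 4, and the difference of the responses in 6 for Lipg. Under DEHP the genotype call was lost in 5 fits for Mttp, in 3 each for Dgat1, Dgat2 and Ces1d, and in 1 for Apobec1. The calls of Mogat1 and Hsd17b11 were kept in all 15. Under the 8 other settings the rise of Lipa was lost in 3 in wild-type mice and in 2 in null mice. The genotype calls under DEHP were lost in 2 settings each for Dgat2 and Mttp and in 1 each for Dgat1 and Apobec1. The wild-type calls of Acsl4, Mettl7b, Abhd6 and Aup1 were lost in 1 each, and those of Mogat1 and Hsd17b11 were kept.

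The genes whose pattern over the 15 arrays was most like that of Fitm1 and Plin5, out of 9969 genes with a mean log2 above the median, were picked by Pearson r. For Fitm1 these were Acads (r = 0.976), Cyp4a10 (0.976) and Decr2 (0.974), and for Plin5 they were Etfb (0.985), Acadvl (0.980) and Decr2 (0.975). These correlations are descriptions over arrays that share group, treatment and normalization. With the mean of each group taken off, r was 0.59, 0.59 and 0.41 for Fitm1 and 0.32, 0.40 and 0.55 for Plin5, in the same order. Cyp4a10, an ω-hydroxylase of fatty acids, averaged 8.61, 11.68, 5.18 and 5.08 in wild-type corn oil, wild-type DEHP, null corn oil and null DEHP mice, against 8.56, 9.89, 6.05 and 6.50 for Fitm1. Decr2, a peroxisomal reductase of fatty acid oxidation, averaged 10.46, 11.09, 8.89 and 9.05. For Fitm2 the nearest were Chchd10 (0.919), Hyal2 (0.917) and Ptges2 (0.913), and for G0s2 they were Pde12 (0.778), Tusc3 (0.777) and Acbd6 (0.759). With group means taken off, these were 0.91, 0.82 and 0.79 for Fitm2 and 0.67, 0.46 and 0.63 for G0s2.

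Across the series, median intensity per array ran from 44.4 to 47.5, and arrays of a group correlated at r = 0.988 to 0.992. Ppara itself was lower in null than in wild-type controls, at 9.09 ± 0.11 against 9.78 ± 0.11 (SD, n = 4 each). The difference was -0.69 ± 0.12 (adjusted p = 0.00645), and where the Ppara probe set lies relative to the targeted exon is not known. Of 6 hepatocyte markers Alb read 13.82 to 13.95 over the 15 arrays. Cps1 fell with DEHP in wild-type mice (-0.34, adjusted p = 0.019) and was the 1 marker of the 6 that was called. The median log2 intensity of the list ran from 13.25 to 13.27 in treated wild-type mice against 13.43 to 13.51 in their controls, without overlap. That median rests on the middle genes of the list, which on most of these arrays included Cps1. The median of the differences of the 6 genes was -0.05 against -0.01 over all genes. Tat read 12.90 to 13.08 in treated wild-type mice against 12.47 to 12.98 in their controls. Of 8 measured markers of white adipocytes Fabp4, which other cell types also express, rose with DEHP in wild-type mice (1.68, adjusted p = 0.000113) and the other 7 did not pass the test. Of 5 endothelial markers Stab2 fell with DEHP in wild-type mice (-0.33, adjusted p = 0.00337), and 4 of the 5 were higher in null than in wild-type mice under DEHP, where 10.7% of all genes were called. In that comparison the hepatocyte marker Hnf4a (0.33, adjusted p = 0.00995) and the stellate cell marker Reln (0.65, adjusted p = 0.000963) were also higher in null mice, and Fabp4 was lower (-1.38, adjusted p = 0.000453). Their part in the results above was not tested. In whole liver, fewer cells of a type and less RNA per cell cannot be told apart.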

How the data were processed

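Single-colour Affymetrix arrays measured liver RNA of 15 mice, 1 array per animal; per the labels' protocols RNA was isolated with mirVana and 300 ng entered the WT cDNA kit. The intensity values were used as deposited by the authors, on a linear scale from 1.77 to 23336.67 with near-equal medians, and how they were normalized is not stated in the sources used here. The labels give no batch, and nothing was counted as depth: the number of arrays limits precision. Of 35494 probe sets, 21789 had 1 symbol, 1621 several and 12084 none; of genes with several (999) the brightest was kept, leaving 19938 genes. Log2 was taken without a pseudocount. limma 3.58.1 (R 4.3.3) fitted 1 mean per group over all 15 arrays (residual degrees of freedom 11, prior 4.68), with 5 contrasts, Benjamini-Hochberg adjustment over all genes and a threshold of 0.05.

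The 10 genes and the lists were chosen with earlier results of these data known. Named genes were all 10, Ppara, up to 4 called genes per context list and contrast, the 3 nearest genes by Pearson r for the 4 genes whose group means ranged widest, and the brightest markers; others were singled out after their values were seen. Acsl3 and Lipc were not analysed here. The 7 marker lists covered hepatocytes, white and brown adipocytes, muscle, stellate cells, Kupffer cells and endothelium. For DEHP in wild-type mice, marker calls were 1 of 6 hepatocyte markers (lower), 1 of 8 white adipocyte (higher), 0 of 5 brown adipocyte, 0 of 7 muscle, 1 of 5 stellate (lower), 0 of 7 Kupffer and 1 of 5 endothelial (lower). Results were recomputed under 8 other settings and without each animal. The scripts were tested on simulated data. Tables came from Python 3.11.15 (numpy 2.4.6, scipy 1.17.1, pandas 2.3.3), figures from matplotlib 3.10.9.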

Additional observations from a re-analysis of the deposited data

Results flagged for a closer look

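In 5 of the 30 groups of 4 animals examined (10 genes in 3 groups), 1 animal stood apart from the others by more than its group's spread allows at the 95% level of Dixon's criterion, which chance passes in about 1 in 20 groups. Wild-type DEHP animal WT-58 stood apart for Plin2 (log2 intensity 11.53) and for Mgll (10.59). Wild-type control animal WT-54 stood apart for Plin4 (6.19) and for Pnpla2 (8.43). Null control animal KO-115 stood apart for Fitm1 (6.58).

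The response to DEHP differed between null and wild-type mice, by limma's test of the difference with Benjamini-Hochberg adjustment, for G0s2 among the 10 genes and for 3 of the 52 other droplet and lipolysis genes. That test called 0.898% of all genes in either direction and 0.562% as lower. The difference of the responses was -1.46 for G0s2 (adjusted p = 0.0285), -3.31 for Mogat1 (adjusted p = 1.05e-05), -1.29 for Hsd17b11 (adjusted p = 0.00307) and -1.08 for Lipg (adjusted p = 0.0316). With 1 animal left out, the call was lost in 9 of 15 fits for G0s2 and in 6 of 15 for Lipg.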

How the results depend on the processing

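No paired analysis was possible because the groups share no replicate numbers. Without each animal in turn, 709 of 750 values of the 10 genes kept direction and side of the threshold, 11 lost a call, 6 gained one and 24 uncalled values changed sign. The number of the 10 genes called ranged from 1 to 2 for DEHP in wild-type mice, stayed at 0 in null mice, and ranged from 0 to 1 for the difference of the responses, 2 to 3 for the genotypes on corn oil and 2 to 4 under DEHP. Under the 8 other settings, 381 of 385 values were kept. Fitm2 under DEHP lost its call with only the groups compared (adjusted p = 0.0751), where G0s2 gained one (0.0263), as it did with dim genes left out (0.0449), and Plin2 changed sign in wild-type mice with array weights (-0.0038, adjusted p = 0.995). That filter left Cidea out. The 6 calls gained without 1 animal were all of G0s2: for DEHP in wild-type mice without WT-54 (0.82, adjusted p = 0.0428), for null against wild type on corn oil without KO-116 (0.94, 0.0327) and without WT-54 (0.94, 0.0379), and under DEHP, at an unchanged difference of -0.67, without KO-116, KO-117 or WT-54 (0.0453, 0.0498 and 0.0465). Animals KO-116, KO-117 and WT-54 were on corn oil and do not enter the difference under DEHP. They act on its adjusted p only through the shared estimate of the spread and the adjustment over all genes. The cause of the other gains was not tested.

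Uncalled values that changed sign without 1 animal ranged as follows. For DEHP in wild-type mice, Plin2 ran from -0.141 to 0.219 and Plin4 from -0.0618 to 0.056. For DEHP in null mice, Plin2 ran from -0.206 to 0.0517, Plin4 from -0.0858 to 0.176, Cidec from -0.0886 to 0.109 and Fitm2 from -0.126 to 0.0317. For the difference of the responses, Plin2 ran from -0.318 to 0.106, Plin4 from -0.0685 to 0.194, Mgll from -0.259 to 0.0471 and Pnpla2 from -0.13 to 0.0854. For the genotypes on corn oil, Plin4 ran from -0.118 to 0.0429, Cidea from -0.00235 to 0.0552 and Pnpla2 from -0.0664 to 0.00246, and under DEHP Plin4 ran from -0.132 to 0.13 and Pnpla2 from -0.157 to 0.0587.

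Counts over all genes moved more: DEHP in null mice called 94 genes, but 1 with only the groups compared, 34 with array medians centred, 56 with array weights, 161 after quantile normalization, 224 with dim genes left out, 287 with log2(value + 16), 293 with trend and robust eBayes, and 9 to 168 without 1 animal. The difference of the responses called 179 genes (0.898%), but 0.592% with array medians centred, 342 with the filter, 418 with log2(value + 16), 424 with trend and robust eBayes, and 61 to 299 without 1 animal. For null against wild type under DEHP 2133 were called, but 1331 with only the groups compared, 2529 with log2(value + 16) and 1019 to 2259 without 1 animal. For DEHP in wild-type mice 770 were called and 433 to 812 without 1 animal. There 667 were called with only the groups compared, 972 with trend and robust eBayes, 978 with dim genes left out, 1012 with log2(value + 16) and 1083 with array weights.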
